A study of Mus musculus with 8 samples.

Results

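Sox9, Sox5, Sox6 and Sox8 are the SOXE and SOXD transcription factor genes followed here in cells of mouse long bones. They are 4 of the 32285 genes of the count matrices and were found by their symbols in all 8 matrices. They were selected on an earlier genotype result of these data, the lower Sox9 UMI counts of mutant stromal and osteoblast cells, so their difference between genotypes is given below as a description without a test. The cells came from the femurs and tibiae of female mice of 7 or 13 weeks, whose haematopoietic cells were depleted with antibodies and magnetic beads before single-cell RNA-seq (10x Chromium, 3′ v3 chemistry). All mice carried conditional null alleles of the 3 SOXC genes, with the genotype Sox4fl/fl Sox11fl/fl Sox12fl/fl. Control mice carried these alleles without Cre, and SOXCOsxCre mice carried them with OsxCre, a transgene whose Cre is switched off by tetracyclines and is otherwise made chiefly by cells of the osteoblast lineage. Unless otherwise stated for an experiment, the study's mice ate doxycycline food until weaning, which keeps this transgene silent. There were 2 mice in each of the 4 groups of genotype and age, with 1 library per mouse. As no control carried OsxCre, loss of the SOXC genes and presence of the transgene cannot be told apart in the genotype contrast.

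SOX proteins bind DNA in the minor groove through a high-mobility-group (HMG) box and bend it. SOX9 and SOX8 belong to the SOXE group and carry a transactivation domain, whereas SOX5 and SOX6 belong to the SOXD group, lack such a domain and dimerise through a coiled coil. In cartilage, SOX9 is required for chondrocyte specification, and SOX5 and SOX6 work with it on the enhancers of cartilage matrix genes such as Col2a1 and Acan; the 3 factors are known as the SOX trio. In the growth plate, Sox9 is known to be active from resting to prehypertrophic chondrocytes.

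The HMG boxes are shown because they are what the 4 genes share and what separates the SOXE from the SOXD pair. Each line gives the 237 coding bases of the box (79 codons, GENCODE vM21 transcripts, GRCm38, which is mm10), 5′ to 3′, with capitals at the 114 bases that are the same in all 4 genes.
Sox9: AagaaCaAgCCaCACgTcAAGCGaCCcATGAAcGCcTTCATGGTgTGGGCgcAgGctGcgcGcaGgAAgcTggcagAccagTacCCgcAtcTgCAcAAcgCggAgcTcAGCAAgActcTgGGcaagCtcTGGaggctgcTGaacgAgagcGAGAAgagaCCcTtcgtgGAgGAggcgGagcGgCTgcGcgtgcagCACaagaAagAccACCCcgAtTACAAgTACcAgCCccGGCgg
Sox8: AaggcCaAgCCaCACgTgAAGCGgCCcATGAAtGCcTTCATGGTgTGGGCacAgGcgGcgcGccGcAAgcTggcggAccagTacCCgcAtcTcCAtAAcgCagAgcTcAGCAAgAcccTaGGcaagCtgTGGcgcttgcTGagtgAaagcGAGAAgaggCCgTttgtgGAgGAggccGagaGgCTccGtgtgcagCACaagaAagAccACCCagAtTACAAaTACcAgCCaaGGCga
Sox5: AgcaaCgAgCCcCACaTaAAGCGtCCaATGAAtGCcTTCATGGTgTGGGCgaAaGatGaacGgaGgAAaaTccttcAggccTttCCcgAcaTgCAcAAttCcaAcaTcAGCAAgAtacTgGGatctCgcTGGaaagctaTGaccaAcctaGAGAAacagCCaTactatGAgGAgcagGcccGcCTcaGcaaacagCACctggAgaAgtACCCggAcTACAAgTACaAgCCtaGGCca
Sox6: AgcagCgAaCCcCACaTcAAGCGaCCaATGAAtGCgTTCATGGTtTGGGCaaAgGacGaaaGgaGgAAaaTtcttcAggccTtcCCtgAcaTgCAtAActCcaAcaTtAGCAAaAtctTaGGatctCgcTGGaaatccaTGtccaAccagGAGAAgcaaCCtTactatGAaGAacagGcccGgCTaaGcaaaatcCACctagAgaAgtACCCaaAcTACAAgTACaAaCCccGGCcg
Sox9 lies on the plus strand at chr11:112782224-112787760. The other members lie on the minus strand, with Sox8 at chr17:25565892-25570686, Sox5 at chr6:143828425-144781977 and Sox6 at chr7:115470872-116038796. Over the box, Sox9 and Sox8 shared 85.65% of bases and Sox5 and Sox6 shared 82.28%. Across the groups, identity was lower, at 62.03% for Sox9 and Sox5, 57.81% for Sox9 and Sox6, 56.96% for Sox5 and Sox8, and 53.16% for Sox6 and Sox8.

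The libraries held between 81894604 and 156090286 UMIs (unique molecular identifiers, each standing for 1 captured transcript). After filtering, 59629 cells were kept, with 6410 to 8753 per mouse, and they fell into 34 clusters that gave 16 named classes. The median UMI count per kept cell was 10017 to 11738 in the mice numbered 1 and 6325 to 7525 in those numbered 2 of their groups. Each pair of libraries shared 30 to 63 cell barcodes, which was at most 0.498% of the smaller library. The names of the classes end in "-like" because they rest on lists of marker genes. Growth plate chondrocytes (GPC-like) and hypertrophic GPC-like cells met all 15 and 10 of their markers, among them Col2a1 and Col10a1. The Lepr+ osteoprogenitor (Lepr+ OP-like) and preosteoblast (preOB-like) clusters both scored highest on the Lepr+ OP list and were separated by how many markers of Lepr+ mesenchymal stromal cells (Lepr+ MSC-like) they also met. Of the targeted genes, Sox4 stood at 410 ± 30.6 CPM in control and 169 ± 22.3 CPM in mutant Lepr+ MSC-like cells, and at 10.2 ± 4.73 and 7.57 ± 3.54 CPM in GPC-like cells (SD, n = 4 mice). Sox12 stood at 15.3 CPM in control and 5.61 CPM in mutant Lepr+ OP-like cells. Whether the counted 3′ ends lie within the deleted segments was not tested.

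Sox9 was highest in the chondrocytes. For each mouse, the UMIs of all cells of a class were added up and are given as CPM (counts scaled to the total of the class). TMM scaling was done among the mice of each class, so that a level can be compared between these mice. Between cell types, a level is compared as a share of the total, without correction for very abundant transcripts of a class. Levels cannot be compared between genes. In GPC-like cells, Sox9 stood at 1100 and 916 CPM in the controls of 7 weeks, 1580 and 1238 CPM in those of 13 weeks, 1057 and 933 CPM in the mutants of 7 weeks and 1103 and 1387 CPM in those of 13 weeks. In hypertrophic GPC-like cells, the same order of mice gave 837, 671, 1334, 1011, 832, 645, 915 and 1081 CPM. In both cell types the genotypes overlapped, and within each genotype both mice of 13 weeks were above both of 7 weeks. The 2 chondrocyte classes overlapped with each other among the controls, with means of 1208 ± 280 and 963 ± 283 CPM (SD, n = 4). Both were apart from Lepr+ OP-like cells, the next class in the order, at 146 ± 34.1 CPM.

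Below the chondrocytes, Sox9 was lower in the stromal and osteoblast classes, and each overlapped with its neighbour in the order. The control means were 92.0 ± 25.3 CPM in preOB-like, 75.5 ± 15.8 CPM in Lepr+ MSC-like, 54.6 ± 15.7 CPM in proliferating Lepr+ OP-like, 43.4 ± 28.1 CPM in Sca1+ MSC-like and 31.0 ± 12.0 CPM in pericyte-like cells. Osteoblasts (OB-like, which express Bglap, the gene of osteocalcin) stood at 18.7 ± 2.51 CPM and endothelial-like cells at 9.09 ± 5.34 CPM. Haematopoietic progenitor-like cells, in which Sox9 is not expected, stood at 5.04 ± 2.08 CPM. Schwann-like cells had a mean of 61.2 ± 76.8 CPM, which rested on 15 UMIs.

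**Figure D1:**
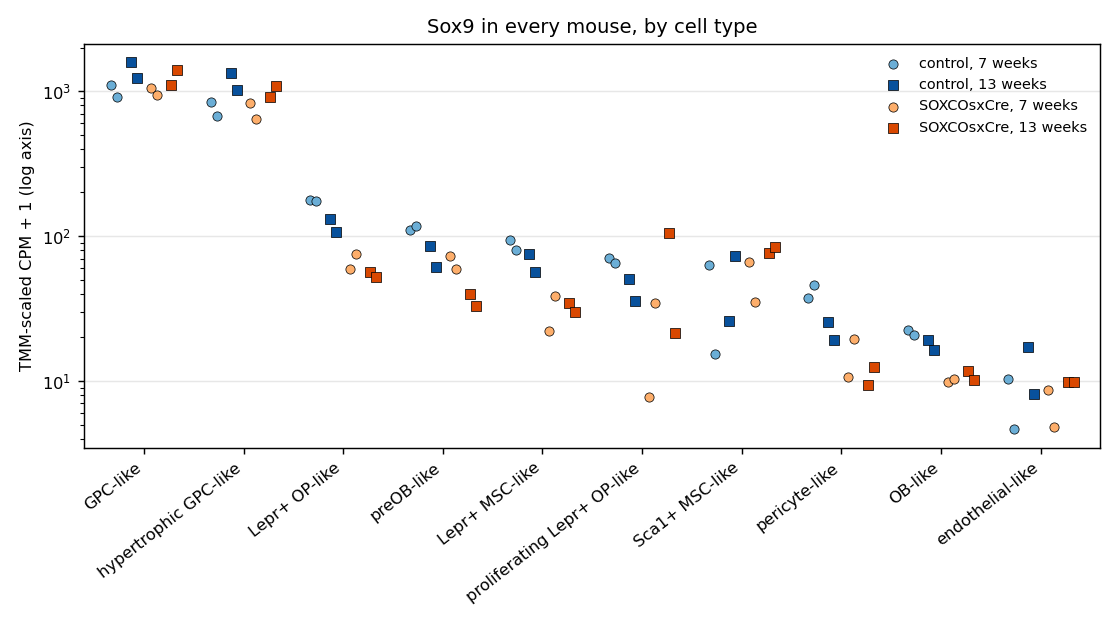
Sox9 in each of the 8 mice (points, coloured by genotype and shaped by age) in 10 cell types, as TMM-scaled CPM with 1 added on a log axis. The 2 chondrocyte classes lie above every other class, and the mutant points lie below the control points in Lepr+ OP-like, Lepr+ MSC-like and OB-like cells.

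The share of cells with a Sox9 UMI was also highest in the chondrocytes. Without thinning it was 99.0% in control GPC-like cells, 44.9 ± 10.3% in Lepr+ OP-like, 36.0% in preOB-like, 25.3% in Lepr+ MSC-like and 17.9% in OB-like cells (means of 4 mice). Sca1+ MSC-like and pericyte-like cells gave 15.04% and 9.11%, below OB-like cells in spite of their higher CPM. Since depth differs between cell types, each cell was also thinned to 3000 UMIs and shallower cells were left out, which gave 92.3%, 28.1%, 20.8%, 15.5% and 5.47% in the first 5 of these classes and 12.8% and 6.96% in the last pair. Endothelial-like cells, used as the background, gave 4.51% unthinned and 2.91% thinned, with median depths of 3045 to 6762 UMIs per mouse against 8866 to 23795 in OB-like cells. The thinned share of OB-like cells in mutants was 2.78%, against 1.70% in mutant endothelial-like cells, so that Sox9 in OB-like cells stood close to the background. A second reference was the ratio of Sox9 to Col2a1 UMIs, as free RNA from 1 source keeps the ratio of its genes. Ratios to Col2a1, here and below, pool the UMIs of all mice of a genotype. Per 1000 Col2a1 UMIs, Sox9 had 28.4 UMIs in control GPC-like cells, 23.1 in endothelial-like, 17.8 in erythroid-like and 18.9 in haematopoietic progenitor-like cells. The ratio was higher in control Lepr+ OP-like cells, at 414, in Lepr+ MSC-like cells, at 211, in preOB-like cells, at 183, and in pericyte-like cells, at 89.0. Single control mice ranged from 347 to 472, 176 to 339, 95.2 to 517 and 58.7 to 187 in these classes, and from 15.6 to 33.7 in endothelial-like cells. It was lower in OB-like cells, at 3.98, where Col2a1 itself stood at 4607 ± 944 CPM. In mutants, the pooled ratio in pericyte-like cells was 18.3, from 21 Sox9 UMIs, against 24.7 in endothelial-like cells. Single mutant mice ranged from 5.25 to 55.6 in pericyte-like and from 19.2 to 48.1 in endothelial-like cells, so the pooled value does not stand for each mouse.

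Sox5 was highest in GPC-like cells as well, and these were apart from every other class among the controls. It stood at 156 and 134 CPM in the controls of 7 weeks, 202 and 180 CPM in those of 13 weeks, 151 and 143 CPM in the mutants of 7 weeks and 167 and 182 CPM in those of 13 weeks. Hypertrophic GPC-like cells, at 74.4 ± 18.3 CPM, overlapped with pericyte-like cells, at 58.7 ± 17.4 CPM (SD, n = 4 controls). Pericyte-like cells are the mural cells of vessels and met all or most of their markers, led by Rgs5 in 1 cluster and by Tagln and Acta2 in the other. Their share of cells with a Sox5 UMI was 21.2% in controls and 19.0% in mutants, against 1.19% and 0.737% of endothelial-like cells, and the thinned shares were 17.0% and 12.6% against 0.450% and 0.521%. In relation to Col2a1, Sox5 had 164 UMIs per 1000 in control pericyte-like cells and 3.89 in GPC-like cells. Schwann-like and Sca1+ MSC-like cells had control means of 37.2 and 9.03 CPM from 7 and 8 UMIs, and all other classes stood at 4.15 CPM or less.

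Sox6 was shared by chondrocytes, erythroid and mural cells. Its control means were 70.5 ± 7.05 CPM in GPC-like, 49.99 ± 22.3 CPM in erythroid-like, 48.1 ± 9.75 CPM in hypertrophic GPC-like and 31.3 ± 17.1 CPM in pericyte-like cells, and each overlapped with the next. Sox6 is a known repressor of embryonic globin genes in erythroid cells. The erythroid-like cells had 117 Sox6 UMIs per 1000 Col2a1 UMIs in controls, against 1.58 in GPC-like cells, and 24.8% of them had a Sox6 UMI. Thinning left out 1818 of these 2603 control cells as too shallow and gave a share of 7.50%. The thinned shares were 19.6% in GPC-like, 11.5% in hypertrophic GPC-like and 8.41% in pericyte-like cells. Schwann-like cells had the highest mean, 77.7 ± 50.4 CPM, from 19 UMIs. All remaining classes stood at 5.98 CPM or less and were apart from pericyte-like cells.

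Sox8 was the lowest of the 4 genes in total UMIs and overlapped between both chondrocyte classes. It stood at 31.7 and 36.2 CPM in GPC-like cells of the controls of 7 weeks, 30.4 and 40.9 CPM in those of 13 weeks, 32.5 and 38.8 CPM in the mutants of 7 weeks and 33.0 and 40.4 CPM in those of 13 weeks, so that neither genotypes nor ages separated. The control mean was 35.6 ± 4.67 CPM in hypertrophic GPC-like cells and 34.8 ± 4.77 CPM in GPC-like cells. Schwann-like cells came next with a mean of 24.1 ± 20.0 CPM, from 7 UMIs. Lower down were Sca1+ MSC-like cells at 10.0 CPM, Lepr+ OP-like cells at 9.94 CPM, pericyte-like cells at 9.29 CPM and endothelial-like cells at 8.01 CPM. Proliferating haematopoietic progenitor-like cells had 0 Sox8 UMIs in all 8 mice.

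**Figure D2:**
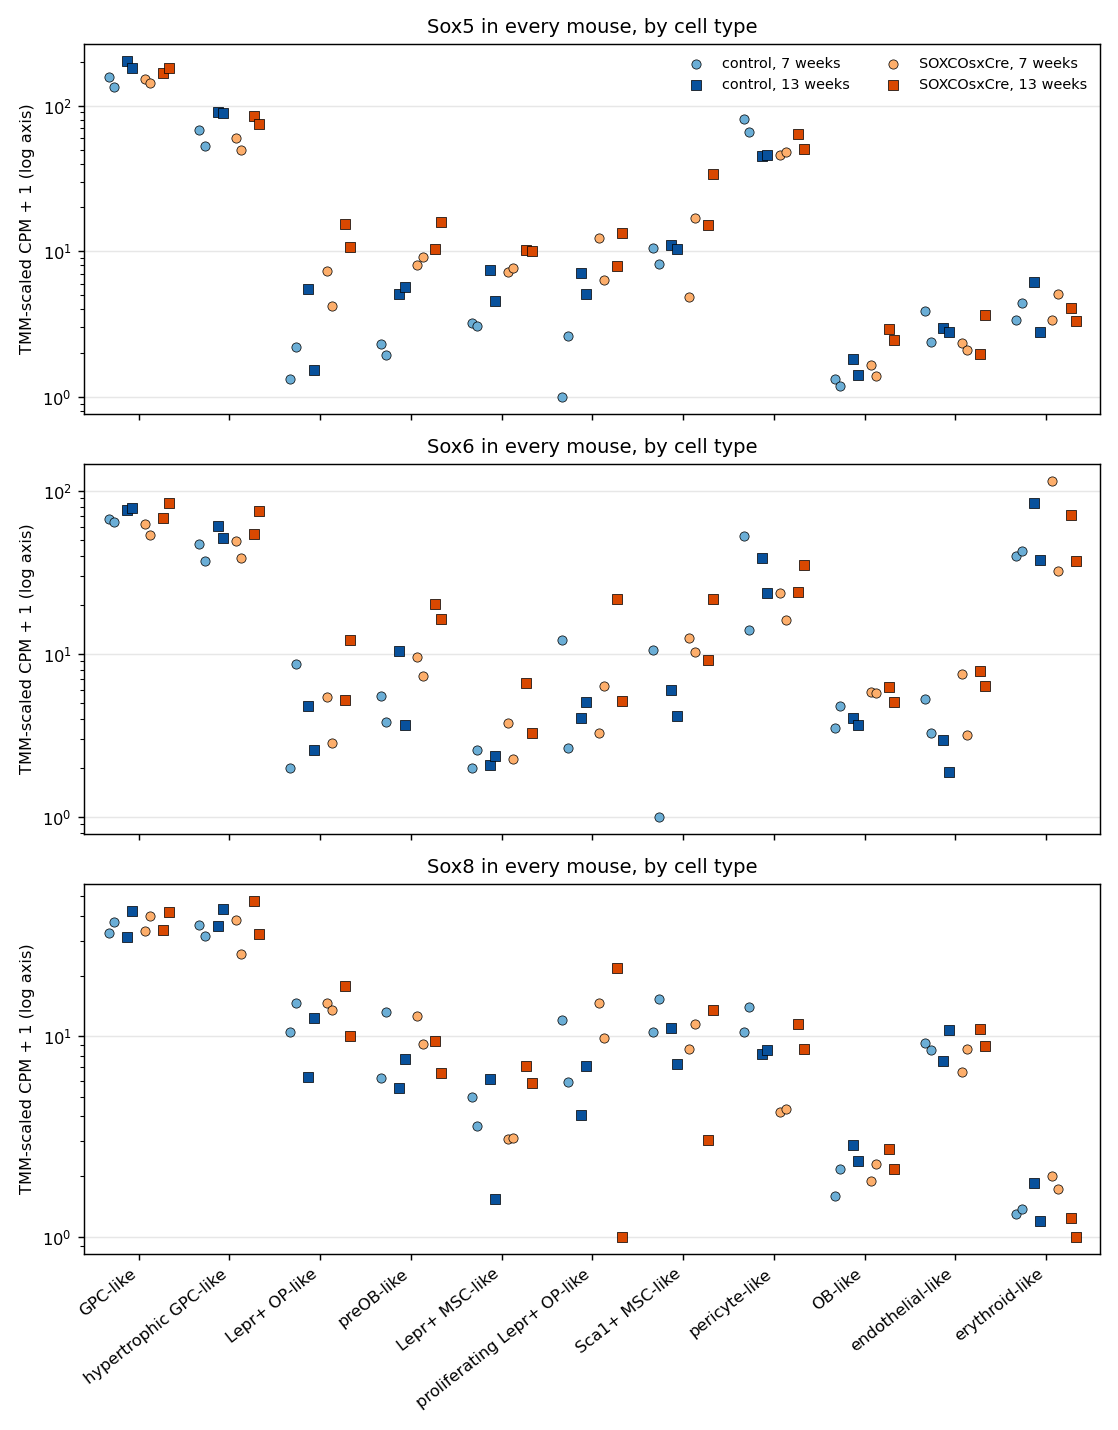
Sox5, Sox6 and Sox8 (top to bottom) in each of the 8 mice (points, coloured by genotype and shaped by age) in 11 cell types, as TMM-scaled CPM with 1 added on a log axis. Pericyte-like cells lie near the chondrocytes for Sox5, erythroid-like cells lie near them for Sox6, and mutant points lie above control points for Sox5 in preOB-like cells.

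Within the named classes, clusters differed in single members of the SOX groups. These clusters were picked after their values were seen, and their differences are a description. The hypertrophic GPC-like cells formed 1 cluster of 1266 cells that had Ihh, the signal of prehypertrophic chondrocytes, among its 10 leading genes, and 1 cluster of 497 cells with Spp1 and Mmp13, which mark terminal chondrocytes. Sox8 stood at 45.5 CPM in the Ihh cluster and 2.96 CPM in the Spp1 and Mmp13 cluster, a 15.4-fold difference that had the same direction in 8 of 8 mice. Sox9 did not go with Sox8, since it stood at 866 CPM in the Ihh cluster and 1068 CPM in the Spp1 and Mmp13 cluster and was lower in the former in 8 of 8 mice. Sox5 (71.4 and 67.0 CPM) and Sox6 (52.9 and 43.1 CPM) were higher in the Ihh cluster in 5 of 8 mice.

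Among GPC-like cells, a cluster of 206 cells was compared with the main cluster of 2773 cells. The smaller cluster had the proliferation markers as its second list after those of GPC, and Ucma, a gene of resting-zone chondrocytes, among its 10 leading genes. Ucma stood at 1030 CPM in the smaller cluster and 675 CPM in the main cluster. Sox9 stood at 910 CPM in the smaller cluster and 1184 CPM in the main cluster, which was higher in 7 of 8 mice. Sox5 had the opposite order, with 201 and 161 CPM, and the main cluster was higher in 1 of 8 mice. Among pericyte-like cells, Sox6 stood at 69.6 CPM in a cluster of 405 cells led by the smooth muscle genes Tagln, Acta2 and Myh11, and at 3.47 CPM in a cluster of 748 cells led by Rgs5. This 20.1-fold difference had the same direction in 8 of 8 mice. Sox5 did not separate the 2 mural clusters, at 63.3 and 49.5 CPM and higher in the smooth muscle cluster in 4 of 8 mice. Sox9 was higher in the Rgs5 cluster, with 27.3 CPM against 12.1 CPM, in 6 of 8 mice.

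**Figure D3:**
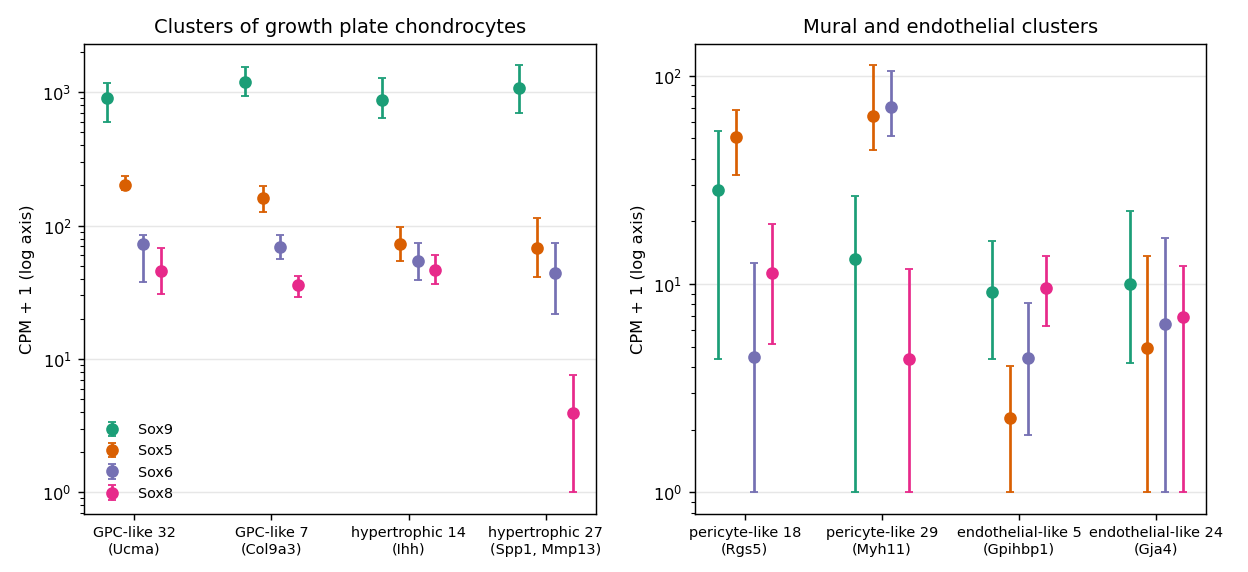
Mean level over the 8 mice (points) with the range over mice (bars) of the 4 genes in clusters of growth plate chondrocytes (left) and of mural and endothelial cells (right), as CPM with 1 added on a log axis. Sox8 drops from 45.5 to 2.96 CPM between the 2 hypertrophic clusters, and Sox6 differs between the 2 pericyte-like clusters with 69.6 against 3.47 CPM.

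In single cells thinned to 3000 UMIs, 25.1 to 41.0% of the GPC-like cells of a mouse had both a Sox9 and a Sox5 UMI. The correlations over cells of 1 mouse were weak, with a median of 0.0614 over the 8 mice for Sox5 and Sox6, and counts this sparse allow no reading of them.

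The genes most like each member were ranked by Pearson correlation of log2 control levels over the 16 named classes, among 10341 genes. For Sox9 they were Cpa6 (r = 0.96), Col27a1 (r = 0.95), Shisa4 (r = 0.95), Rarres1 (r = 0.94) and Nog (r = 0.94). Col27a1 encodes a cartilage collagen and Nog an antagonist of bone morphogenetic proteins. Among the members, Sox8 was the most like Sox9 (r = 0.85, 85th of all genes), ahead of Sox5 (r = 0.67) and Sox6 (r = 0.46). For Sox5 the closest genes were Stk38l (r = 0.93), Susd5 (r = 0.90), Pex11a (r = 0.89), Dhx58os (r = 0.89) and Mtus2 (r = 0.88). Sox6 had Mpc1 (r = 0.83), Cd82 (r = 0.83), Tmem134 (r = 0.81), Smim6 (r = 0.80) and then Sox5 (r = 0.80), its partner in the SOXD group. Sox8 had Gm15270 (r = 0.94), Nrep (r = 0.93), Prnp (r = 0.93), Syn3 (r = 0.93) and Arf2 (r = 0.92). The 16 classes share libraries and differ in depth, and these values are a description. Among the classes are Schwann-like cells, where Sox6 and Sox8 rested on 19 and 7 control UMIs. Mpc1 and Tmem134, named for Sox6, and Prnp and Syn3, named for Sox8, had their highest control level in that class.

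The remaining SOXE and SOXD genes lay outside the chondrocytes. Sox10, the SOXE gene of neural crest derivatives, stood at 97.1 ± 93.4 CPM in Schwann-like cells and 3.28 ± 2.22 CPM in GPC-like cells of controls (SD, n = 4). Sox13, the third SOXD gene, stood at 48.6 ± 25.2 CPM in endothelial-like, 14.7 ± 5.24 CPM in pericyte-like and 0.681 ± 0.458 CPM in GPC-like cells. Within endothelial-like cells, Sox13 was higher in a cluster of 560 cells that expressed the arterial gene Gja4 than in the main cluster of 3006 cells, with 106 against 31.9 CPM, in 8 of 8 mice. The SOXF genes Sox7, Sox17 and Sox18, which act in vessel development, stood at 152, 166 and 186 CPM in endothelial-like cells, and Sox2 at 156 CPM in Schwann-like cells.

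The genotype comparison asked how the 4 genes differed between SOXCOsxCre and control cells, and Sox9 was lower in mutant Lepr+ OP-like, Lepr+ MSC-like, preOB-like and OB-like cells. It overlapped between the genotypes in the chondrocytes, and the difference between cell types was not tested. In Lepr+ OP-like cells, Sox9 stood at 176 and 173 CPM in the controls of 7 weeks, 130 and 106 CPM in those of 13 weeks, 58.6 and 73.9 CPM in the mutants of 7 weeks and 55.7 and 51.6 CPM in those of 13 weeks. The genotypes did not overlap, and the mutant mean of 60.0 ± 9.75 CPM was 0.410 of the control mean, with a log2 fold change of -1.27 ± 0.15 (SE of the edgeR fit over both ages). Among Lepr+ MSC-like cells, Sox9 stood at 93.3, 79.8, 73.9 and 55.2 CPM in controls and at 21.2, 37.4, 33.7 and 28.8 CPM in mutants, with mice of 7 weeks first. These groups were apart too, and the log2 fold change was -1.32 ± 0.18. The share of Lepr+ OP-like cells with a Sox9 UMI fell from 44.9% to 20.5% on average, and from 28.1% to 12.3% after thinning.

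Sox9 was also lower in preOB-like and OB-like cells. In preOB-like cells, the values were 108, 116, 83.9 and 60.0 CPM in controls and 72.4, 58.3, 38.6 and 32.1 CPM in mutants, with mice of 7 weeks first. Within each age the genotypes were apart, but the ranges over both ages overlapped, and the log2 fold change was -0.90 ± 0.16. In OB-like cells, Sox9 stood at 21.3, 19.8, 18.3 and 15.4 CPM in controls and 8.92, 9.38, 10.7 and 9.23 CPM in mutants, which were apart, with a log2 fold change of -0.96 ± 0.10. The mutant values were near the control mean of endothelial-like cells, 9.09 CPM. The summed level of the 15 GPC markers in OB-like cells was 3953 to 6175 CPM in controls and 2059 to 4522 CPM in mutants, with 3 of 15 higher. The part of chondrocyte RNA in this Sox9 difference was not tested. In pericyte-like cells the log2 fold change was -1.30 ± 0.35, but the groups overlapped and a mouse had only 3 to 38 Sox9 UMIs. When each mouse was left out in turn, the log2 fold change stayed between -1.35 and -1.19 for Lepr+ OP-like, -1.54 and -1.14 in Lepr+ MSC-like, -1.01 and -0.76 in preOB-like and -1.03 and -0.90 in OB-like cells.

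In the other classes, Sox9 overlapped between the genotypes. In GPC-like cells the means were 1208 ± 280 CPM in controls and 1120 ± 192 CPM in mutants, with a log2 fold change of -0.10 ± 0.15. In hypertrophic GPC-like cells it was -0.13 ± 0.16, in endothelial-like cells -0.26 ± 0.39 and in Sca1+ MSC-like cells 0.36 ± 0.41. The value in endothelial-like cells was 0.11 without the first control of 7 weeks and 0.12 without the first control of 13 weeks. That in Sca1+ MSC-like cells lay between 0.10 without the second control of 7 weeks and 1.14 without the first, with 0.18 without the first and 0.64 without the second mutant of 7 weeks, and 0.13 without the first and 0.90 without the second control of 13 weeks. In proliferating Lepr+ OP-like cells the log2 fold change was -0.52 ± 0.42. It was -1.34 without the first mutant of 13 weeks, -0.19 without the second, -0.21 without the first mutant of 7 weeks and -1.35 without the second. The first mutant of 13 weeks had 103.9 CPM of Sox9 against 6.82, 33.6 and 20.6 CPM in the other mutants, and the same library had 5503 CPM of Col2a1 against 122 to 1769 CPM in the others. The part of chondrocyte RNA in that value was not tested.

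Sox5 was higher in mutant preOB-like cells, at far lower counts. In preOB-like cells, it stood at 1.29, 0.936, 4.12 and 4.67 CPM in controls (4, 2, 11 and 7 UMIs) and at 7.01, 8.19, 9.32 and 14.8 CPM in mutants (18, 17, 21 and 24 UMIs), with mice of 7 weeks first. The genotypes were apart, with a log2 fold change of 2.05 ± 0.35. In Lepr+ OP-like cells, the controls had 1, 2, 6 and 1 UMIs and the mutants 13, 7, 17 and 14 UMIs, in the same order. This gave 0.327, 1.19, 4.51 and 0.518 CPM against 6.35, 3.24, 14.4 and 9.77 CPM, which overlapped, and a log2 fold change of 2.59 ± 0.56. Without the first control of 13 weeks it was 3.57. In both classes the mutants met the filter on low counts and the controls alone would not have, which favours a difference in this direction. Endothelial-like cells, as the background, stood at 1.99 CPM of Sox5 in controls and 1.52 CPM in mutants, against means of 1.64 CPM in control and 8.43 CPM in mutant Lepr+ OP-like cells. The control mean was thus near the background and the mutant mean above it. Per 1000 Col2a1 UMIs, Sox5 had 3.42 UMIs in control and 27.7 in mutant Lepr+ OP-like cells and 4.90 and 22.9 in preOB-like cells, against 3.89 and 3.74 in GPC-like cells. Sox5 overlapped between the genotypes in Lepr+ MSC-like cells, where it differed by 1.20 ± 0.31 on the log2 scale, and in OB-like cells, where it differed by 1.21 ± 0.30 (81 UMIs in controls and 198 in mutants). The control mean of Sox5 in OB-like cells was 0.439 CPM, below that of endothelial-like cells.

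In the chondrocytes and mural cells, Sox5 overlapped between genotypes, with log2 fold changes of -0.06 ± 0.12 in GPC-like, -0.17 ± 0.14 in hypertrophic GPC-like and -0.14 ± 0.22 in pericyte-like cells. Sox6 had a log2 fold change of -0.10 ± 0.13 in GPC-like, 0.12 ± 0.16 in hypertrophic GPC-like and -0.48 ± 0.40 in pericyte-like cells, where it was 0.14 without the first control of 7 weeks. In OB-like cells, Sox6 stood at 2.51, 3.77, 3.03 and 2.64 CPM in controls and 4.85, 4.76, 5.26 and 4.04 CPM in mutants, with mice of 7 weeks first. The genotypes were apart, with a log2 fold change of 0.67 ± 0.16, at a level near that of Sox6 in endothelial-like cells (2.36 CPM in controls and 5.23 CPM in mutants). In preOB-like cells the log2 fold change of Sox6 was 1.18 ± 0.33 with overlapping groups, and lay between 0.93 and 1.83 with 1 mouse left out. It was as large in endothelial-like cells, used above as the background, at 1.24 ± 0.53 (0.73 to 1.60 with 1 mouse left out). In Lepr+ OP-like cells it was 0.72 ± 0.59 (0.17 to 1.62). Sox8 did not separate by genotype in any of the tested classes, with log2 fold changes of 0.06 ± 0.15 in GPC-like, -0.03 ± 0.18 in hypertrophic GPC-like, -0.05 ± 0.29 in endothelial-like, 0.34 ± 0.33 in preOB-like and 0.38 ± 0.29 in Lepr+ OP-like cells. With 1 mouse left out, Sox8 lay between 0.08 and 0.68 in preOB-like and between 0.14 and 0.74 in Lepr+ OP-like cells.

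**Figure D4:**
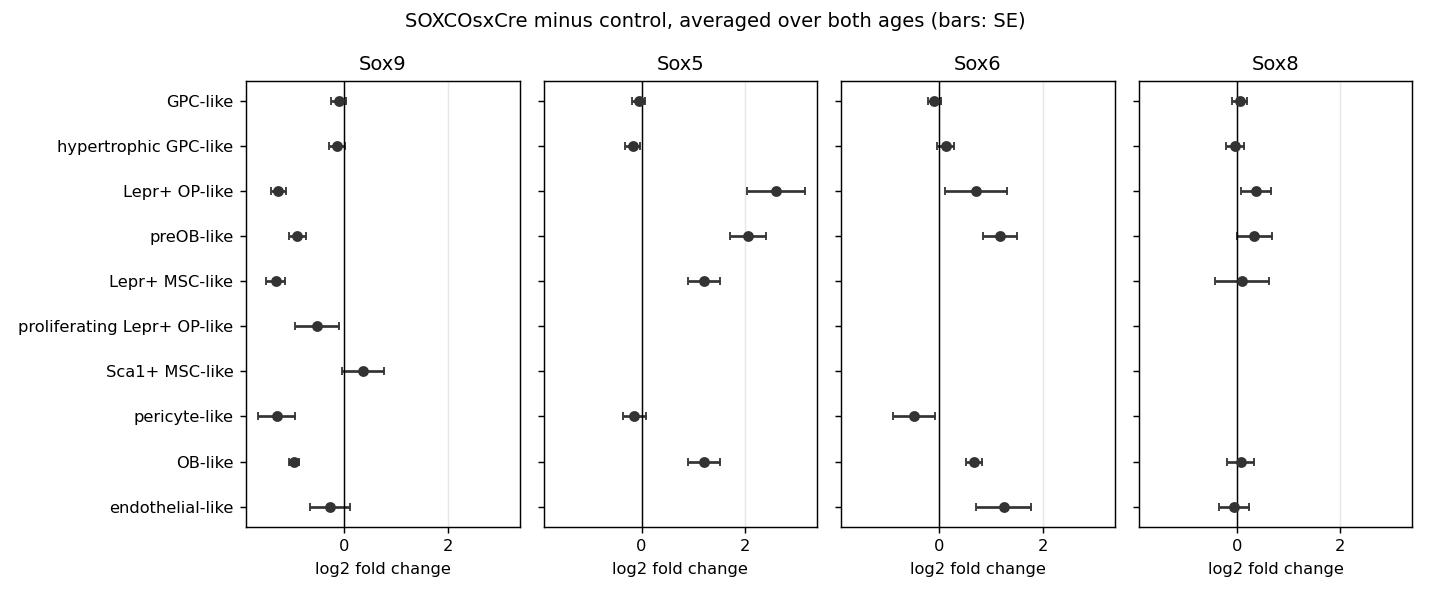
Log2 fold change of SOXCOsxCre over control, averaged over both ages (points), with its SE (bars), for each member in the cell types where it passed the filter on low counts. Sox9 lies left of 0 in Lepr+ OP-like, Lepr+ MSC-like, preOB-like and OB-like cells, right of 0 with a wide SE in Sca1+ MSC-like cells, and near 0 in the chondrocytes, whereas Sox5 lies right of 0 in Lepr+ OP-like, Lepr+ MSC-like, preOB-like and OB-like cells.

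Of the 40 pairs of a member and a cell type, 31 passed the filter on low counts, namely 10 for Sox9 and 7 for each of the others. As the members were chosen with the genotype contrast known, no call is given for them. Among all genes, the share called by genotype at an adjusted p of at most 0.05 (edgeR) was 0.978% in Lepr+ OP-like, 0.226% in Lepr+ MSC-like, 0.749% in preOB-like, 1.44% in OB-like, 1.16% in Sca1+ MSC-like, 0.0289% in hypertrophic GPC-like and 0.0141% in proliferating Lepr+ OP-like cells. It was 0% in GPC-like, endothelial-like and pericyte-like cells with edgeR, where 226, 338 and 499 genes had an unadjusted p under 0.05 and DESeq2 called 3, 0 and 7 genes. With the replicate number as a block, the share was 3.65% for OB-like and 0.574% for Lepr+ MSC-like cells, 2.46% for preOB-like and 2.49% for Lepr+ OP-like cells.

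Genes around the SOX trio were taken from 3 lists, namely 30 cartilage matrix genes and enzymes that the trio is known to act on, 17 genes of hypertrophy and endochondral ossification, and 28 regulators and partners of SOX9. Few of them differed between genotypes. The lists were chosen with earlier results of these data known, so the genotype p-values given for them are no independent test. From the same libraries, the study had reported lower Phex and higher Ccn2 and Mmp13 in mutant Lepr+ stromal cells and preosteoblasts. In GPC-like cells, 0 of the 30 matrix genes were called with edgeR or DESeq2 and 1 had an unadjusted p under 0.05. Their median log2 fold change was -0.09, against -0.01 for all genes, and Col2a1 stood at 44951 ± 4571 CPM in controls and 44480 ± 6242 CPM in mutants. In Lepr+ OP-like cells, 1 of 27 tested matrix genes was called, with a median of -0.28. Comp, which encodes an extracellular matrix protein of cartilage and tendon, rose there by 0.99 ± 0.17 on the log2 scale (edgeR quasi-likelihood test, Benjamini-Hochberg adjusted p = 0.00666). It also rose in preOB-like cells, by 1.39 ± 0.22 (adjusted p = 0.00689), and in OB-like cells, by 1.02 ± 0.21 (adjusted p = 0.0494). Without 1 mouse, the adjusted p reached at most 0.0341 in Lepr+ OP-like and 0.0292 in preOB-like cells. The call in OB-like cells was lost without any 1 mouse but the second mutant of 13 weeks, at adjusted p-values of 0.0688 to 0.157.

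In preOB-like cells, 2 of 28 tested matrix genes were called, Comp and Mia, with a median of -0.04 over the list. Mia, a secreted protein of chondrocytes, rose by 0.99 ± 0.19 (adjusted p = 0.0237). This call was lost without the second control of 7 weeks (0.110), the first mutant of 7 weeks (0.138), the second control of 13 weeks (0.0860), the first mutant of 13 weeks (0.0514) or the second mutant of 13 weeks (0.0765). Of the ossification genes, Phex, an endopeptidase gene of osteoblasts and osteocytes, fell by 1.19 ± 0.15 on the log2 scale in Lepr+ MSC-like cells (adjusted p = 0.00549, at most 0.0371 without 1 mouse), as 1 of 15 tested. Of the regulators, Ccn2, a matricellular growth factor, rose by 0.72 ± 0.17 in Lepr+ OP-like cells (adjusted p = 0.0474), and Scx, a factor of tendon cells, rose by 0.60 ± 0.12 in OB-like cells (adjusted p = 0.0469). Both calls were lost without any 1 mouse but the second control of 7 weeks, at adjusted p-values of 0.0522 to 0.235 for Ccn2 and 0.0579 to 0.193 for Scx. Sca1+ MSC-like cells had 3 listed genes called, 1 each of 20 tested matrix genes, 12 ossification genes and 17 regulators. This class was small and uneven, with 31 to 57 cells per control (158 in all) and 33 to 171 per mutant (408 in all). There, Scx rose by 2.96 ± 0.56 (adjusted p = 0.0237), Chad by 2.94 ± 0.58 (adjusted p = 0.0267) and Mmp13 by 1.51 ± 0.28 (adjusted p = 0.0222). With 1 mouse left out, these log2 values lay between 2.37 and 3.52 for Scx, 2.26 and 5.74 for Chad, and 1.23 and 1.76 for Mmp13. Without the first control of 7 weeks, the adjusted p-values were 0.164, 0.146 and 0.122, and without the second mutant of 7 weeks they were 0.145, 0.145 and 0.137, in the order of Scx, Chad and Mmp13. Scx was also lost without the second control of 7 weeks (0.0999), Chad without the first control of 13 weeks (0.0528), and Mmp13 without the second control (0.160) or the first mutant (0.0644) of 7 weeks. DESeq2 called all 10 of these pairs of a listed gene and a cell type. With the replicate number as a block, 3 matrix genes were called in Lepr+ OP-like and 4 in OB-like cells, and 3 in preOB-like cells, of which 2 were higher and 1 was lower in mutants. There were 2 ossification genes in Lepr+ OP-like cells, 1 in each of the preOB-like and OB-like classes, and 2 regulators in Lepr+ OP-like cells, 3 in OB-like cells and 1 in preOB-like cells.

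The defining genes Col2a1, Acan, Col10a1 and Pth1r had 0 calls by genotype among 40 pairs of a gene and a class with edgeR or DESeq2, and 6 had an unadjusted p under 0.05. With the replicate number as a block there were 2 calls, Col2a1 in OB-like cells (-0.51 ± 0.10, adjusted p = 0.0305) and Pth1r in Lepr+ OP-like cells (0.45 ± 0.11, adjusted p = 0.0363). Col2a1 had a log2 difference of -0.37 ± 0.18 in Lepr+ OP-like cells (adjusted p = 0.603). Pth1r, the receptor for parathyroid hormone, stood at 518 ± 35.1 CPM in control and 709 ± 47.6 CPM in mutant Lepr+ OP-like cells without overlap, and differed by 0.45 ± 0.15 on the log2 scale (adjusted p = 0.239). In preOB-like cells Pth1r also did not overlap, at 771 ± 80.3 and 1004 ± 79.6 CPM (0.38 ± 0.16, adjusted p = 0.510). The 15 GPC markers are all in the list of matrix genes as well. Their summed level was 848 to 1069 CPM in control and 657 to 1806 CPM in mutant Lepr+ OP-like cells, with 4 of 15 markers higher in mutants, and none was at 0. In preOB-like cells it was 554 to 1594 CPM in controls and 679 to 2283 CPM in mutants, with 8 of 15 higher. In Lepr+ MSC-like cells it was 649 to 966 and 627 to 1283 CPM, with 3 of 15 higher, and in OB-like cells 3953 to 6175 and 2059 to 4522 CPM, with 3 of 15 higher. In Sca1+ MSC-like cells, where Scx, Chad and Mmp13 were called, it was 720 to 1397 CPM in controls and 853 to 4124 CPM in mutants, with 14 of 15 higher. The part of chondrocyte RNA in the listed differences was not tested.

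The second comparison asked how the genes changed between 7 and 13 weeks, which the choice of the members did not use. Sox9 fell with age in preOB-like cells, the 1 class of 10 where it was called. There it fell by 0.75 ± 0.16 on the log2 scale (adjusted p = 0.0203, edgeR), from a mean of 88.7 CPM at 7 weeks to 53.6 CPM at 13 weeks, and both older mice were below both younger ones in each genotype. This call was lost without the second control of 7 weeks (adjusted p = 0.0567), the first mutant of 7 weeks (0.101), the second control of 13 weeks (0.0647), the first mutant of 13 weeks (0.0517) or the second mutant of 13 weeks (0.0854), and when doublets were kept (0.0633). The ages were also apart in each genotype for Lepr+ OP-like cells, with a log2 difference of -0.44 ± 0.15 (adjusted p = 0.253). In hypertrophic GPC-like cells Sox9 had a difference of 0.53 ± 0.16, from 746 to 1085 CPM (adjusted p = 0.0559), and in GPC-like cells of 0.40 ± 0.15, from 1002 to 1327 CPM (adjusted p = 0.129). The value in hypertrophic GPC-like cells passed the threshold with DESeq2 (adjusted p = 0.0225) and without the second control of 13 weeks (0.0271).

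The log2 ratio of Sox9 between 2 cell types of the same mouse was compared between the ages. The ratio of GPC-like to preOB-like cells was higher at 13 weeks by 1.17 and that of GPC-like to Lepr+ OP-like cells by 0.83. For hypertrophic GPC-like cells the differences were 1.31 and 0.97. As the ages were apart in each genotype in all 4 of these classes, with opposite signs, these ratios must separate the ages too. Their exact p of 0.0556 (adjusted p = 0.0833), the smallest that the permutation test allows, follows from that and adds nothing to it. Against Lepr+ MSC-like cells the differences were 0.54 for GPC-like and 0.68 for hypertrophic GPC-like cells (exact two-sided permutation test of the ages within genotypes, p = 0.167, adjusted p = 0.167 over 6 comparisons, with 0.0556 as the smallest p that 36 arrangements allow). GPC-like cells made up 1.97 to 3.62% of the kept cells of a mouse at 7 weeks and 6.21 to 8.51% at 13 weeks, and hypertrophic GPC-like cells 1.56 to 2.62% and 3.16 to 5.67%. The summed GPC markers in preOB-like cells were also higher at 13 weeks, at 1051 to 2283 CPM against 554 to 1040 CPM, whereas Sox9 was lower. The sums in Lepr+ OP-like cells were 848 to 1806 against 657 to 994 CPM. Their part in the values of Sox9 was not tested.

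Sox5 rose with age in hypertrophic GPC-like and OB-like cells. In hypertrophic GPC-like cells it stood at 67.2, 51.9, 59.0 and 48.6 CPM at 7 weeks and at 90.2, 88.4, 84.0 and 74.1 CPM at 13 weeks, with controls first, and the ages did not overlap. The log2 difference was 0.56 ± 0.14 (edgeR adjusted p = 0.0281). The call was lost without the second control of 7 weeks (adjusted p = 0.0957), the second mutant of 7 weeks (0.127), the first control of 13 weeks (0.0610), the first mutant of 13 weeks (0.0891) or the second mutant of 13 weeks (0.0835), and with doublets kept (0.133). In GPC-like cells the difference was 0.32 ± 0.12 (adjusted p = 0.149), and in preOB-like cells 1.26 ± 0.36 (adjusted p = 0.0913, and 0.0484 with the replicate number as a block).

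In OB-like cells, Sox5 stood at a mean of 0.393 CPM at 7 weeks and 1.15 CPM at 13 weeks, a log2 difference of 1.44 ± 0.30 (edgeR adjusted p = 0.0457). Both levels were below those in endothelial-like cells, at 1.67 and 1.84 CPM, and thus in the range of the background. This call was lost without any 1 mouse but the second control of 13 weeks, with adjusted p-values of 0.0731 and 0.139 without the first and second control of 7 weeks, 0.0602 and 0.120 without the first and second mutant of 7 weeks, 0.221 without the first control of 13 weeks, and 0.155 and 0.0840 without the first and second mutant of 13 weeks. It was also lost with doublets kept (0.0624) and with a mitochondrial limit of 5% (0.0601).

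Sox6 and Sox8 each had 0 calls by age in 7 tested classes with edgeR or DESeq2, and 3 values of Sox6 and 1 of Sox8 had an unadjusted p under 0.05. Sox6 had log2 differences of 0.32 ± 0.13 in GPC-like (adjusted p = 0.160), 0.48 ± 0.16 in hypertrophic GPC-like (adjusted p = 0.0817) and 1.01 ± 0.33 in preOB-like cells (adjusted p = 0.162). The value in preOB-like cells was 0.36 without the first control of 13 weeks (adjusted p = 0.874) and passed the threshold without the second, at 1.25 (adjusted p = 0.0362). Sox8 had 0.06 ± 0.15 in GPC-like (adjusted p = 0.840) and 0.26 in hypertrophic GPC-like cells (adjusted p = 0.389). In GPC-like cells, both mice of 13 weeks were above both of 7 weeks in each genotype for Sox9, Sox5 and Sox6, and Sox8 overlapped.

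**Figure D5:**
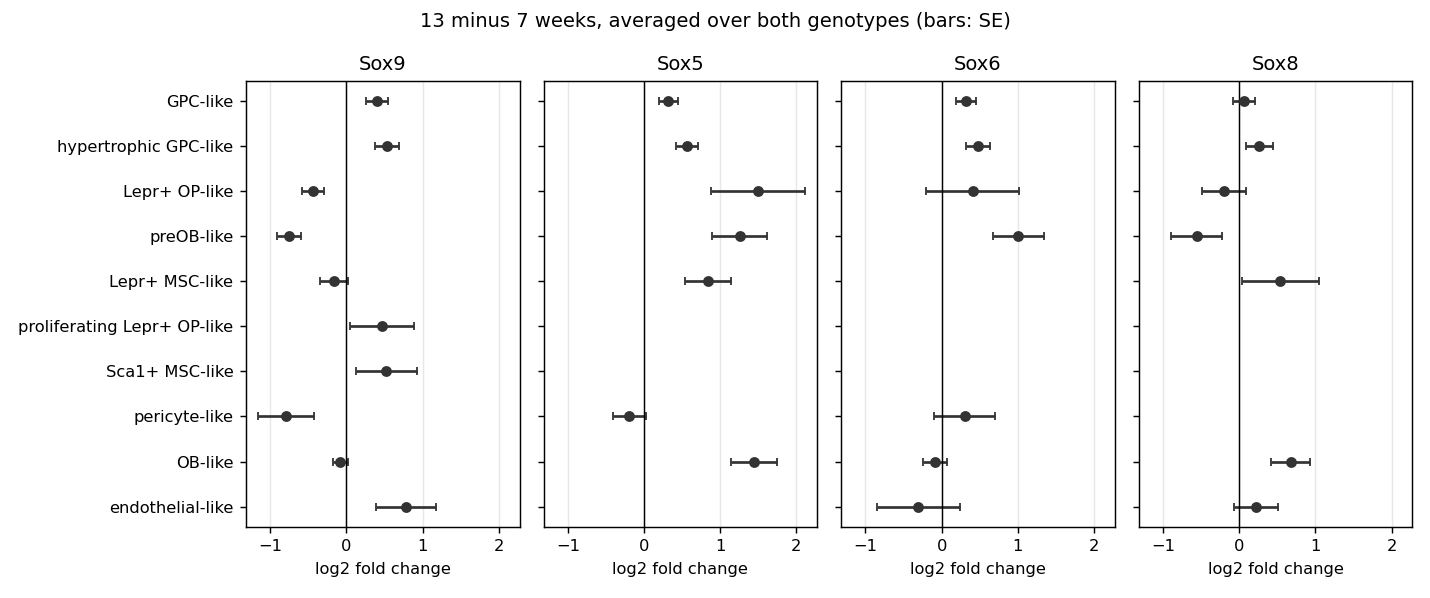
Log2 difference of 13 minus 7 weeks, averaged over both genotypes (points), with its SE (bars), for each member in the cell types where it passed the filter on low counts. Sox9 lies right of 0 in the chondrocytes and left of 0 in preOB-like and Lepr+ OP-like cells, and Sox8 lies at 0.06 in GPC-like cells.

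By age, 3 of the 31 pairs were called (6 with the replicate number as a block) and 15 had an unadjusted p under 0.05. Among all genes, the share called by age was 2.69% in preOB-like, 6.79% in hypertrophic GPC-like and 1.85% in OB-like cells, where the 3 calls lie. It was 4.55% in GPC-like, 2.86% in endothelial-like, 1.16% in Lepr+ OP-like, 0.165% in Lepr+ MSC-like, 0.156% in pericyte-like, 0.0439% in Sca1+ MSC-like and 1.23% in proliferating Lepr+ OP-like cells. With the block it was 13.1% in hypertrophic GPC-like and 12.0% in GPC-like cells. The blocked share was 5.77% in preOB-like, 4.67% in OB-like, 5.10% in endothelial-like, 2.73% in Lepr+ OP-like and 0.783% in Lepr+ MSC-like cells. The difference of the genotype effect between 13 and 7 weeks was called for 0 of 31 pairs with edgeR or DESeq2, and 2 had an unadjusted p under 0.05, Sox5 in pericyte-like cells (1.01 ± 0.44) and Sox9 in proliferating Lepr+ OP-like cells (2.21 ± 0.84). The latter compares -1.63 at 7 weeks with 0.58 at 13 weeks. It includes the first mutant of 13 weeks, which was far above the other mutants in Sox9 and Col2a1. The share of all genes called was 0% in each of the 10 classes, where 151 to 347 genes per class had an unadjusted p under 0.05. With the block, 1 gene was called in Lepr+ OP-like, 1 in hypertrophic GPC-like and 2 in proliferating Lepr+ OP-like cells. DESeq2 called 1 gene, in proliferating Lepr+ OP-like cells, and 0 in the other classes.

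Some of the listed cartilage genes also changed with age, in both directions. In GPC-like cells, 2 of 30 matrix genes rose and 3 fell, with a median log2 difference of -0.20 against 0.00 for all genes. Cytl1, a secreted factor of chondrocytes, rose by 2.69 ± 0.45 (edgeR adjusted p = 0.00879), and Chad, which encodes chondroadherin, rose by 1.11 ± 0.17 (adjusted p = 0.00567). Matn1, a matrilin of cartilage, fell by 2.12 ± 0.24 (adjusted p = 0.00108), Matn4, another matrilin, fell by 0.62 ± 0.14 (adjusted p = 0.0348), and Hapln1, a link protein of aggrecan and hyaluronan, fell by 0.59 ± 0.14 (adjusted p = 0.0386). Col2a1 had a difference of -0.20 ± 0.15 (adjusted p = 0.454). Of the ossification genes, Col10a1, the collagen of hypertrophic cartilage, fell by 1.73 ± 0.19 (adjusted p = 0.000735), and Bmp6, a growth factor of hypertrophic cells, fell by 1.14 ± 0.25 (adjusted p = 0.0268). Of the regulators, Ccn2 rose by 1.07 ± 0.20 (adjusted p = 0.0147) and Ptch1, the receptor of hedgehog signals, by 0.61 ± 0.15 (adjusted p = 0.0437). Sox10, the SOXE gene that was low in these cells, fell by 1.91 ± 0.29 (adjusted p = 0.00498). The calls of Cytl1 and Ccn2 were lost without the first control of 7 weeks (adjusted p = 0.0577 and 0.0690) or the second (0.0530 and 0.0554). Bmp6 was lost without the first control (0.0836), the second control (0.0839) or the second mutant (0.0740) of 7 weeks, or the second mutant of 13 weeks (0.129). Hapln1 was lost without any 1 mouse but the second control of 13 weeks (0.0628 to 0.180), Matn4 without any but the second control and the first mutant of 13 weeks (0.0565 to 0.182), and Ptch1 without any but the first mutant of 7 weeks and the first control of 13 weeks (0.0553 to 0.146). Chad, Matn1, Col10a1 and Sox10 passed the threshold without any 1 mouse.

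In hypertrophic GPC-like cells, 2 of 30 matrix genes rose with age and 6 fell, with a median of -0.19. Acan, the gene of aggrecan, fell by 0.82 ± 0.15 on the log2 scale (edgeR adjusted p = 0.00438) and Col10a1 fell by 0.97 ± 0.19 (adjusted p = 0.00666). Bmp6 fell by 1.13 ± 0.18 (adjusted p = 0.00100), and Matn1 fell by 1.75 ± 0.18 (adjusted p = 1.80e-05). Cytl1 rose by 1.93 ± 0.24 (adjusted p = 0.000124) and Chad by 0.95 ± 0.16 (adjusted p = 0.00200). Of the regulators, Ccn2 rose by 1.14 ± 0.16 (adjusted p = 0.000368). These 7 calls passed the threshold without any 1 mouse. Fmod, the gene of fibromodulin, fell by 0.92 ± 0.23 (adjusted p = 0.0226, DESeq2 0.123), Hapln1 fell by 0.65 ± 0.16 (adjusted p = 0.0252), and Barx2, a homeobox factor, fell by 1.74 ± 0.44 (adjusted p = 0.0265, DESeq2 0.0560). These 3 were lost without the second control of 7 weeks, the first mutant of 7 weeks, the first control of 13 weeks or the second mutant of 13 weeks (0.0509 to 0.138), and Hapln1 and Barx2 also without the second mutant of 7 weeks (0.0567 and 0.0761). Nfatc1 rose by 0.51 ± 0.15 (adjusted p = 0.0466) and was lost without any 1 mouse but the first control of 7 weeks and the second control of 13 weeks (0.0678 to 0.172). Col2a1 had a difference of -0.57 ± 0.21 (adjusted p = 0.121).

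In preOB-like cells, 5 of 28 tested matrix genes rose with age and 2 fell, with a median of 0.34. Mia rose by 1.89 ± 0.19 (edgeR adjusted p = 0.000123), Comp by 1.91 ± 0.22 (adjusted p = 0.000324), Cytl1 by 2.91 ± 0.43 (adjusted p = 0.00194) and Chad by 1.48 ± 0.23 (adjusted p = 0.00276). Acan fell by 1.07 ± 0.19 (adjusted p = 0.00716), and Fmod fell by 1.91 ± 0.24 (adjusted p = 0.000600). Of the other lists, Phex rose by 1.22 ± 0.20 (adjusted p = 0.00409), Bmp4, a bone morphogenetic protein, by 1.13 ± 0.18 (adjusted p = 0.00337) and Ccn2 by 1.17 ± 0.20 (adjusted p = 0.00477). These 9 calls also held without any 1 mouse. Ibsp, the gene of bone sialoprotein, rose by 1.33 ± 0.25 (adjusted p = 0.00991), which was lost without the first mutant of 7 weeks (0.0552). In preOB-like cells 14 of the 15 GPC markers, which are all in the list of matrix genes as well, were higher at 13 weeks. Among Lepr+ OP-like cells, 3 of 27 rose and 1 fell. There, Comp rose by 1.19 ± 0.17 (adjusted p = 0.00163) and Mia by 1.34 ± 0.23 (adjusted p = 0.00889), Chad rose by 1.15 ± 0.24 (adjusted p = 0.0232), and Matn1 was the gene that fell (adjusted p = 0.0373). Chad was lost without the second control (0.0616) or first mutant (0.0627) of 7 weeks, or the first control (0.0895), first mutant (0.0545) or second mutant (0.0917) of 13 weeks. Matn1 was lost without any 1 mouse (0.0619 to 0.157) and with DESeq2 (0.185). In OB-like cells 4 of 30 rose and 1 fell, with the lowest adjusted p for Chad, which rose by 1.12 ± 0.18 (adjusted p = 0.0144) and was lost without the second control of 7 weeks (0.0558) or the first mutant of 13 weeks (0.0589). Of the matrix genes in endothelial-like cells, 4 of 26 rose, and Cytl1 rose in both classes, by 2.40 ± 0.41 (adjusted p = 0.0181) and 2.73 ± 0.40 (adjusted p = 0.00326). The call of Cytl1 in OB-like cells was lost without the second control of 7 weeks (0.0671), the first mutant of 7 weeks (0.0507) or the first mutant of 13 weeks (0.0589). Endothelial-like cells are not known to make cartilage matrix, and 11 of their 15 GPC markers were higher at 13 weeks. The part of free RNA from chondrocytes in these values was not tested. In the same cells, Sox13 rose by 1.03 ± 0.22 (adjusted p = 0.0243), which was lost without the second control of 7 weeks (0.0905), the first control of 13 weeks (0.161), the first mutant of 13 weeks (0.137) or the second mutant of 13 weeks (0.0548). Of all 64 pairs of a cell type and a gene of the 3 lists or another SOX gene, the targeted SOXC genes left out, called by age, 25 passed the threshold without any 1 mouse and 57 with DESeq2. With the replicate number as a block, 10 matrix genes were called in preOB-like, 7 in endothelial-like, 6 in OB-like, 6 in Lepr+ OP-like and 3 in Lepr+ MSC-like cells (7, 4, 5, 4 and 1 without it). The block gave 6 ossification genes in preOB-like cells and 3 each in Lepr+ MSC-like, OB-like and Lepr+ OP-like cells, with 2 in endothelial-like cells (2, 1, 0, 2 and 1 without it). It gave 7 regulators in OB-like, 6 in preOB-like and 3 in Lepr+ OP-like cells (2 in each without it). The chondrocyte counts rose as well. For GPC-like cells the block called 10 matrix genes (5 without it), 4 ossification genes (2) and 7 regulators (2). For the hypertrophic class these counts were 15 (8), 5 (2) and 6 (3). Of the matrix genes called with the block, 7 of 10 and 11 of 15 fell with age.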

How the data were processed

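The deposited matrices list whole UMI counts for every gene and cell barcode, without normalisation; the authors produced them with Cell Ranger 6.1.2 on the mm10 build (submitters' processing notes); the annotation is not given in the sources used here. Each library holds 12086 to 14151 barcodes (105359 in all), before the filters of the study's methods. Cells with 200 to 6000 genes and at most 10% mitochondrial UMIs were kept. Doublets were called after the idea of DoubletFinder at a rate of 0.8% per 1000 barcodes, with 25% simulated doublets, which removed 9.67 to 11.3% of cells. Libraries were integrated with Seurat 5.3.0 (reciprocal PCA, 2000 variable genes without the SOXC genes and the 4 members, 30 components) and clustered with leidenalg 0.10.2 (20 neighbours, resolution 1) in Python 3.11.15. Markers were counted in a cluster if present in 10% or more of its cells and if their CPM, after adding 5, was 2-fold or more above the median cluster, and a name needed 3 of them. Clusters of non-haematopoietic type with few UMIs per cell, 7.65 to 17.5% of the cells of a mouse, were kept out of the classes, except where no deeper cluster had the same name; shallow erythroid-like and megakaryocyte-like clusters were kept. UMIs were summed per mouse and class with at least 10 cells, and tested with edgeR 4.0.16 in R 4.3.3 (TMM, filterByExpr, quasi-likelihood test, 1 mean for each group of genotype and age, 4 residual degrees of freedom), with p-values adjusted over all genes of the class by Benjamini-Hochberg. The mouse is the replicate. The mutants and controls were littermate sisters, in 2 pairs at each age, which the fit without a block does not use; neither labels nor methods say which replicate numbers belong to 1 litter. All 6 pairs of same-numbered groups deviated together in Lepr+ MSC-like, Lepr+ OP-like, preOB-like, OB-like and endothelial-like cells at a correlation over 0.1 (0.106 to 0.410). Over all tested classes, the median was 0.188 for pairs of the same age and 0.131 for pairs of different ages. There the fit with the number as a block is given where it changes a share of all genes, a call of a member or a count of the 3 lists. In the other 5 classes not all pairs passed 0.1 (-0.0819 to 0.214). All were positive except in Sca1+ MSC-like cells, with 0.0344 to 0.212 in GPC-like and 0.0639 to 0.203 in hypertrophic GPC-like cells. For these chondrocyte classes, shares and list counts by age with the block are given as well. The script was tested on simulated counts with known changes. The alternatives were DESeq2 1.42.0, no filter on low counts, each mouse left out, a replicate block, doublets kept, a mitochondrial limit of 5%, resolution 1.5, no integration and, for levels, CPM without TMM. A block of same-numbered pairs within each age was also fitted for the genotype contrast, and its values are not given here.

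The members, gene lists and tests were chosen with earlier results of these data known. Genes named in the text are the 4 members, the 5 genes most like each, Col2a1, Acan, Col10a1 and Pth1r, the genes with the lowest adjusted p at or under 0.05, up to 6 from each list in a class (not all classes and lists are walked through), and other SOX genes at 5 CPM or more, with Sox10 and Sox13. Cluster markers, the targeted genes and the genes that lead clusters are named besides.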

Additional observations from a re-analysis of the deposited data

Results flagged for a closer look

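The age difference of Sox9 had opposite signs in cell types of the same mice, with both mice of 13 weeks on the same side of both mice of 7 weeks in each genotype. On the log2 scale the difference of 13 minus 7 weeks was 0.40 in GPC-like and 0.53 in hypertrophic GPC-like cells, and -0.44 in Lepr+ OP-like and -0.75 in preOB-like cells. As these cell types stand here because their ages were apart in opposite directions, the exact permutation p of 0.0556 for the difference between them, the smallest possible, is no further evidence.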

How the results depend on the processing

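By age, 3 pairs of a member and a cell type were called, against 8 without the filter on low counts, 6 with a replicate block, 6 without integration, 0 with doublets kept, and 0 to 4 when 1 mouse was left out. Of the listed pathway genes and the other SOX genes, the targeted SOXC genes left out, 10 pairs were called by genotype, against 17 with DESeq2, 55 without the filter and 24 with a replicate block, and 4 to 16 with 1 mouse left out. By age, 64 were called, against 144 without the filter and 122 with the block, and 36 to 72 with 1 mouse left out. The genotype difference of Sox9 in Lepr+ OP-like cells was -1.06 without integration. With a mitochondrial limit of 5%, the control level of Sox9 in Lepr+ OP-like cells was 92.1 CPM and that of Sox5 in GPC-like cells 198 CPM. No called difference changed sign under the alternatives run. Of the 31 genotype differences of the members, 11 changed sign under at least 1 of them, each between -0.48 and 0.12 on the log2 scale. The causes were not tested. Classes named preOB-like were not found with the mitochondrial limit of 5% or without integration, and proliferating Lepr+ OP-like cells were not found with doublets kept, so these give no value. The block also brought Sox9 (adjusted p = 0.00996) and Sox6 (0.0373) in hypertrophic GPC-like cells past the threshold by age. Same-numbered pairs correlated at 0.0639 to 0.203 there. Besides these and Sox5 in preOB-like cells, it changed no call by age of a member. With 2 mice per group, the calls by age depended on single mice, and low counts limited Sox5 in Lepr+ OP-like and preOB-like cells.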
